A study of Rattus norvegicus with 20 samples.

Results

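The kainate receptor genes are the subunit genes Grik1, Grik2, Grik3, Grik4 and Grik5 and the auxiliary subunit genes Neto1 and Neto2. A probe set, the group of probes that reports 1 transcript, belonged to a member when its only gene symbol was that member's name. The probe set that was brightest over the 20 arrays stood for its gene. This gave 7 of the 22093 genes with a named probe set, over 11 of 23446 probe sets, and all 7 were bright enough to be among the 15465 genes tested.

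The study measured RNA in the ventral hippocampus of adult male Sprague-Dawley rats, injected on both sides at an age of 2 months. Rats received either 200 pmol of a synthetic miR-17-5p mimic in 1.5 µl of water or a scrambled small RNA as control. RNA was taken from synaptoneurosomes, a preparation of resealed synaptic endings torn from their neurons, or from the whole homogenate. The 4 groups of 5 arrays each were synaptoneurosome mimic, synaptoneurosome control, homogenate mimic and homogenate control. All rats had been handled, had a sucrose preference measurement, and had surgery under isoflurane with ketoprofen as pain relief. There were 11 to 13 animals per condition, and the labels do not say how they relate to the 5 arrays of a group, so p-values here reflect the variation among these arrays, which may be technical in part. The interval from injection to tissue collection is not given in the sources used here.

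Kainate receptors are tetrameric ion channels opened by glutamate, found on both sides of hippocampal synapses and best known at the mossy fibre synapses between dentate granule cells and CA3 pyramidal cells. The products of Grik1, Grik2 and Grik3 (GluK1, GluK2, GluK3) can form channels on their own, while those of Grik4 and Grik5 (GluK4, GluK5) bind agonist with high affinity and need one of the other 3 as a partner. Neto1 and Neto2 are single-pass membrane proteins that attach to the channel, slow its closing and desensitization, and affect where it is delivered.

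The injected RNA imitates a microRNA, a short guide that pairs through its seed with matching sites in messenger RNAs and lowers their stability or translation. The mature rat sequence is shown because the seed defines which transcripts it can pair with. It comes from RefSeq and lies on the plus strand of GRCr8 at chr15:98587861-98587883. Its 23 bases are written 5′ to 3′ with the seed, bases 2 to 8, in capitals.
rno-miR-17-5p: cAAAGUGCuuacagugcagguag
The seed is shared by 5 mature rat microRNA names in that table, which are miR-17-5p, miR-20a-5p, miR-20b-5p, miR-93-5p and miR-106b-5p. Sites for it in the kainate receptor transcripts were not analysed here.

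Promoter windows are shown for 3 members: Grik5, which held its fraction difference in every fit below, and Grik3 and Neto2. The levels of Grik3 and Neto2 followed each other most closely among the members over all 20 arrays. Without 3 arrays described below, Grik3 followed Grik5 (Pearson r = 0.72) more closely than Neto2 (r = 0.60). All 7 members had a promoter in the RefSeq table for GRCr8, each running from 250 bases before the annotated start to 50 bases after it. The windows lie at chr1:89794860-89795159 on the minus strand (Grik5), at chr5:143052192-143052491 on the plus strand (Grik3) and at chr19:37517305-37517604 on the plus strand (Neto2). They read 5′ to 3′ on the gene's strand, with GGGCGG or its reverse complement CCGCCC, the GC box, in capitals.
Grik5: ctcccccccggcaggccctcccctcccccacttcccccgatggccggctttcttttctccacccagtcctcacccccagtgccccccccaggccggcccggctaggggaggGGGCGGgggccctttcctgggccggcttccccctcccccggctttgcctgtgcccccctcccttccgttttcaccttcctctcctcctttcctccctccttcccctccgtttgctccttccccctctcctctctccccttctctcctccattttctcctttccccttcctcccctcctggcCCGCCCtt
Grik3: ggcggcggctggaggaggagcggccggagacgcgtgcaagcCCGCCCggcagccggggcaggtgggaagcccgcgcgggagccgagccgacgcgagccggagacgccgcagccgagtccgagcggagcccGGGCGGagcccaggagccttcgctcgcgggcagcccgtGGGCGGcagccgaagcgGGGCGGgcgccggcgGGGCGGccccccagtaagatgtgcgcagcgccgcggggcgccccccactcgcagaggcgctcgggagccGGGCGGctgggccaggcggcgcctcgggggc
Neto2: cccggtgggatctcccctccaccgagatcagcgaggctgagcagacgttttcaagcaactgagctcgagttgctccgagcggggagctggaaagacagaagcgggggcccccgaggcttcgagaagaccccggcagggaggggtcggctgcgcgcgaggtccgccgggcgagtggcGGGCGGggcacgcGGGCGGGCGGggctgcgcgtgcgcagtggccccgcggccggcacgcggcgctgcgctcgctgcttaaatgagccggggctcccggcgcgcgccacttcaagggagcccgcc
The Grik5 window held 2 GC boxes, 11 CG dinucleotides and 69% G or C. Grik3 had 6 GC boxes, 49 CG dinucleotides and 82.3% G or C, and Neto2 had 3 GC boxes, 41 CG dinucleotides and 74% G or C, with overlapping matches counted. The GC box occurred in 33.1% of the 33469 promoter windows of the table, whose medians were 51.7% G or C and 7 CG dinucleotides. Of the other members, Neto1 had 1 GC box, and Grik1, Grik2 and Grik4 had 0. These matches describe the letters of the windows.

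Every value below is a log2 expression level from the deposited table, on which a difference of 1 is a doubling, and levels of different genes are not compared because each probe set has its own brightness. Markers of excitatory neurons were bright in all groups. Their summed signal on the log2 scale was 19.08 to 19.24 in synaptoneurosome mimic, 19.03 to 19.33 in synaptoneurosome control, 19.14 to 19.23 in homogenate mimic and 18.96 to 19.21 in homogenate control arrays. The sum does not show its members, of which 3 of 6 tested were lower and 1 higher in synaptoneurosomes in each treatment, with median log2 differences of -0.67 in mimic rats and -0.68 in control rats. These markers do not tell the hippocampus from other cortex, and those of its subfields are given below. Endothelial markers were lower in synaptoneurosomes than in homogenate for 8 of 8 tested genes in each treatment. Of 9 astrocyte markers, all tested, 5 were higher in synaptoneurosomes in each treatment, the direction of Grik5, and 0 were lower. Of 9 microglial markers, all tested, 2 were higher in mimic rats and 4 in control rats, and 0 were lower. Across all tested genes 11% were higher in mimic rats and 11.8% in control rats. The summed signal of the astrocyte markers was 18.03 to 18.34 in synaptoneurosome mimic and 18.09 to 18.28 in synaptoneurosome control arrays. It was 17.57 to 17.77 in homogenate mimic and 17.53 to 17.84 in homogenate control arrays. The part of astrocyte or microglial RNA in the fraction differences below was not tested. Before any comparison, 3 synaptoneurosome arrays stood apart from the rest: mimic 5, control 4 and control 5. They scored 53, 30.2 and 45.1 on the first component of the within-group deviations, which carried 52.2% of that variance, and the other 17 arrays scored from -29.4 to 5.6. Without these 3 arrays, 3 of the 9 astrocyte markers were higher in mimic rats and 6 in control rats, with 0 lower, beside 16.1% and 14.8% of all tested genes higher. Of the 9 microglial markers 2 were then higher in mimic rats and 3 in control rats, with 0 lower. Values without the 3 arrays are given beside the results they move.

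**Figure D1:**
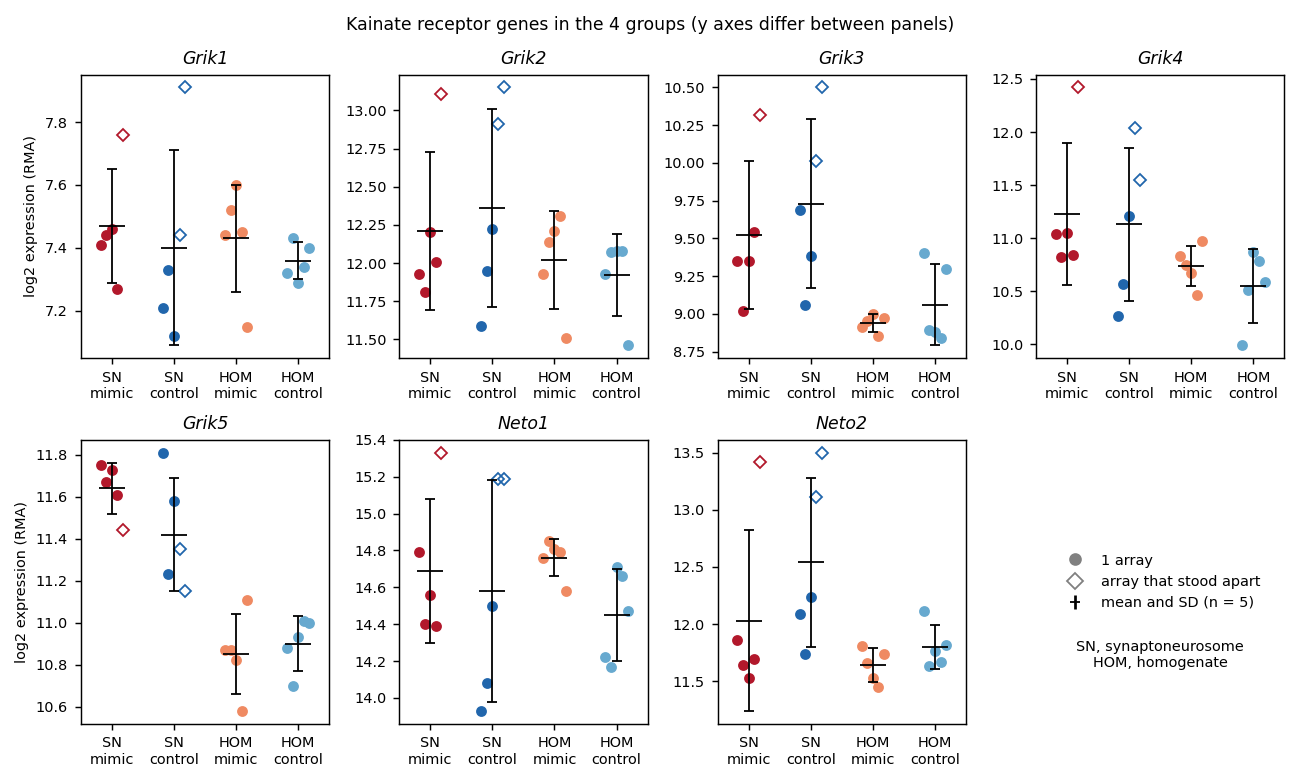
Log2 expression of the 7 kainate receptor genes on each of the 20 arrays, in columns for synaptoneurosome (SN) mimic, SN control, homogenate (HOM) mimic and HOM control. Filled points are arrays, open diamonds the 3 synaptoneurosome arrays that stood apart, and lines the mean and SD of 5 arrays. The diamonds lie above the other synaptoneurosome arrays of their group in every panel but that of Grik5. Among the members, only Grik5 has synaptoneurosome and homogenate arrays that do not overlap in either treatment. How many of all tested genes separate in this way was not counted.

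Comparing the fractions asks which subunit transcripts were enriched in or depleted from the synaptic fraction. Grik5 was higher in synaptoneurosomes in both treatments, by 1.73-fold in mimic rats and 1.43-fold in control rats. Grik3 was higher in control rats (1.59-fold), and was just outside the threshold in mimic rats (1.49-fold). Grik1, Grik2, Grik4, Neto1 and Neto2 did not pass the test in either treatment, and no member was lower. Changed here means an adjusted p below 0.05 in limma, with Benjamini-Hochberg adjustment over all 15465 genes. By that rule 1 of 7 members was higher in mimic rats and 2 of 7 in control rats. Over all tested genes 11% were higher in mimic rats and 11.8% in control rats, and 41.7% and 39.8% changed in either direction. The median log2 difference of the 7 members was 0.39 in mimic rats and 0.52 in control rats, beside medians of -0.08 and -0.06 over all tested genes. Without the 3 arrays the members' medians were 0.04 in mimic rats and 0.13 in control rats. Among all genes the split of calls moved with the scaling of the arrays: 1697 were higher and 4756 lower in mimic rats as deposited, against 2077 and 2938 after quantile scaling and 1069 and 5740 after median centring. In control rats 1818 were higher and 4332 lower as deposited, and 2420 and 2472 after quantile scaling.

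Grik5 encodes GluK5 (formerly KA2), the most widely expressed high-affinity subunit of the brain. Its log2 levels in mimic rats were 11.75, 11.67, 11.73, 11.61 and 11.44 in synaptoneurosomes, against 10.87, 10.87, 10.82, 10.58 and 11.11 in homogenate. In control rats they were 11.81, 11.23, 11.58, 11.35 and 11.15 in synaptoneurosomes, against 10.88, 10.70, 10.93, 11.01 and 11.00 in homogenate. All synaptoneurosome arrays lay above all homogenate arrays in both treatments. How many of all tested genes separated in this way was not counted. By the adjusted p, which is a different measure, 41.7% changed between the fractions in mimic rats and 39.8% in control rats. The log2 difference was 0.79 ± 0.12 in mimic rats (SE, 5 against 5 arrays, 95% interval 0.55 to 1.03, limma adjusted p = 3.04e-05). In control rats it was 0.52 ± 0.12 (95% interval 0.28 to 0.76, limma adjusted p = 0.00166). Without the 3 arrays that stood apart the differences were 0.84 in mimic rats and 0.64 in control rats, with limma adjusted p-values of 1.09e-05 and 0.000439. Leaving out any 1 array kept the call in all 10 fits of each treatment, with log2 differences of 0.72 to 0.85 in mimic rats and 0.42 to 0.59 in control rats.

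Grik3 encodes GluK3, a subunit with low sensitivity to glutamate that is known presynaptically at mossy fibres. In mimic rats its log2 levels were 9.35, 9.02, 9.35, 9.54 and 10.32 in synaptoneurosomes, against 8.91, 8.95, 9.0, 8.85 and 8.97 in homogenate. In control rats they were 9.69, 9.06, 9.38, 10.01 and 10.50 in synaptoneurosomes, against 9.40, 8.89, 8.88, 8.84 and 9.30 in homogenate. The fractions did not overlap in mimic rats, although the lowest synaptoneurosome array lay just above the highest homogenate array, and they overlapped in control rats. The log2 difference was 0.58 ± 0.23 in mimic rats (95% interval 0.09 to 1.07, limma adjusted p = 0.0543) and 0.67 ± 0.23 in control rats (95% interval 0.17 to 1.16, limma adjusted p = 0.0309). The 3 arrays that stood apart held the highest Grik3 values of their groups. Without them the difference was 0.38 ± 0.14 in mimic rats, which passed the test, and 0.31 ± 0.15 in control rats, which did not (limma adjusted p = 0.029 and 0.0978). In control rats the call was kept in 5 of the 10 fits that left out 1 array. It was lost without homogenate control 2, 3 or 4 and without synaptoneurosome control 4 or 5, and limma adjusted p-values over the 10 fits were 0.00754 to 0.0906.

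Grik4 encodes GluK4 (formerly KA1), the high-affinity subunit concentrated in CA3 pyramidal cells and granule cells. Its log2 levels in mimic rats were 11.04, 10.82, 11.05, 10.84 and 12.42 in synaptoneurosomes, against 10.83, 10.75, 10.67, 10.47 and 10.97 in homogenate. Control rats had 10.27, 10.57, 11.21, 12.04 and 11.55 in synaptoneurosomes, against 9.99, 10.51, 10.87, 10.79 and 10.59 in homogenate. The fractions overlapped in both treatments, and the highest values were on the arrays that stood apart. The fractions differed on the log2 scale by 0.50 ± 0.31 in mimic rats (95% interval -0.16 to 1.15, limma adjusted p = 0.215) and 0.58 ± 0.31 in control rats (-0.08 to 1.23, limma adjusted p = 0.149). Leaving out the 3 arrays brought the difference to 0.20 and 0.13.

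Grik2 encodes GluK2, the principal channel-forming subunit of hippocampal pyramidal cells. Its log2 levels in mimic rats were 11.93, 11.81, 12.20, 12.01 and 13.11 in synaptoneurosomes, against 11.93, 12.14, 12.21, 12.31 and 11.51 in homogenate. Control rats had 11.59, 11.95, 12.22, 12.91 and 13.15 in synaptoneurosomes, against 11.93, 12.07, 12.08, 12.08 and 11.46 in homogenate. The arrays that did not stand apart overlapped between the fractions in both treatments. The fractions differed on the log2 scale by 0.19 ± 0.28 in mimic rats (95% interval -0.39 to 0.77, limma adjusted p = 0.606) and 0.44 ± 0.28 in control rats (-0.14 to 1.02, limma adjusted p = 0.213). Leaving out the 3 arrays brought the difference to -0.03 ± 0.17 and 0.00 ± 0.18.

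Grik1 encodes GluK1, the subunit associated with hippocampal interneurons. Its log2 levels in mimic rats were 7.41, 7.44, 7.46, 7.27 and 7.76 in synaptoneurosomes, against 7.44, 7.52, 7.60, 7.45 and 7.15 in homogenate. Control rats had 7.21, 7.33, 7.12, 7.44 and 7.91 in synaptoneurosomes, against 7.32, 7.43, 7.29, 7.34 and 7.40 in homogenate. Synaptoneurosome values lay on both sides of the homogenate values. The fractions differed on the log2 scale by 0.04 ± 0.12 in mimic rats (95% interval -0.22 to 0.29) and 0.05 ± 0.12 in control rats (-0.21 to 0.30), with limma adjusted p-values of 0.837 and 0.785. Over the other 17 arrays the difference was -0.04 and -0.14, and after quantile scaling of all arrays it was 0.23 in each treatment (limma adjusted p = 0.183 in mimic and 0.18 in control rats).

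Neto1, which in the hippocampus also binds NMDA receptors, had log2 levels in mimic rats of 14.79, 14.40, 14.56, 14.39 and 15.33 in synaptoneurosomes, against 14.76, 14.85, 14.81, 14.79 and 14.58 in homogenate. In control rats they were 13.93, 14.08, 14.50, 15.19 and 15.19 in synaptoneurosomes, against 14.22, 14.17, 14.71, 14.66 and 14.47 in homogenate. In each treatment the arrays that stood apart lay above the homogenate range, while 3 of the other 4 in mimic rats and 2 of the other 3 in control rats lay below it. The log2 difference was -0.06 ± 0.23 in mimic rats (95% interval -0.54 to 0.41) and 0.13 ± 0.23 in control rats (-0.34 to 0.61), with limma adjusted p-values of 0.843 and 0.665. Over the other 17 arrays it was -0.22 ± 0.13 and -0.28 ± 0.14, with limma adjusted p-values of 0.163 and 0.125. The value also depended on the scaling, with 0.21 in mimic rats, a turned sign, and 0.58 in control rats after quantile scaling (limma adjusted p = 0.708 and 0.256).

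Neto2, which also binds the chloride transporter KCC2 in neurons, had log2 levels in mimic rats of 11.86, 11.64, 11.53, 11.69 and 13.42 in synaptoneurosomes, against 11.81, 11.66, 11.53, 11.45 and 11.74 in homogenate. In control rats they were 12.09, 11.74, 12.24, 13.11 and 13.50 in synaptoneurosomes, against 12.11, 11.63, 11.76, 11.67 and 11.82 in homogenate. The fractions overlapped in both treatments. The log2 difference was 0.39 ± 0.33 in mimic rats (95% interval -0.29 to 1.07, limma adjusted p = 0.357) and 0.74 ± 0.33 in control rats (0.05 to 1.42, limma adjusted p = 0.0795). Without the 3 arrays it was 0.04 ± 0.11 and 0.23 ± 0.12, with limma adjusted p-values of 0.776 and 0.151.

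**Figure D2:**
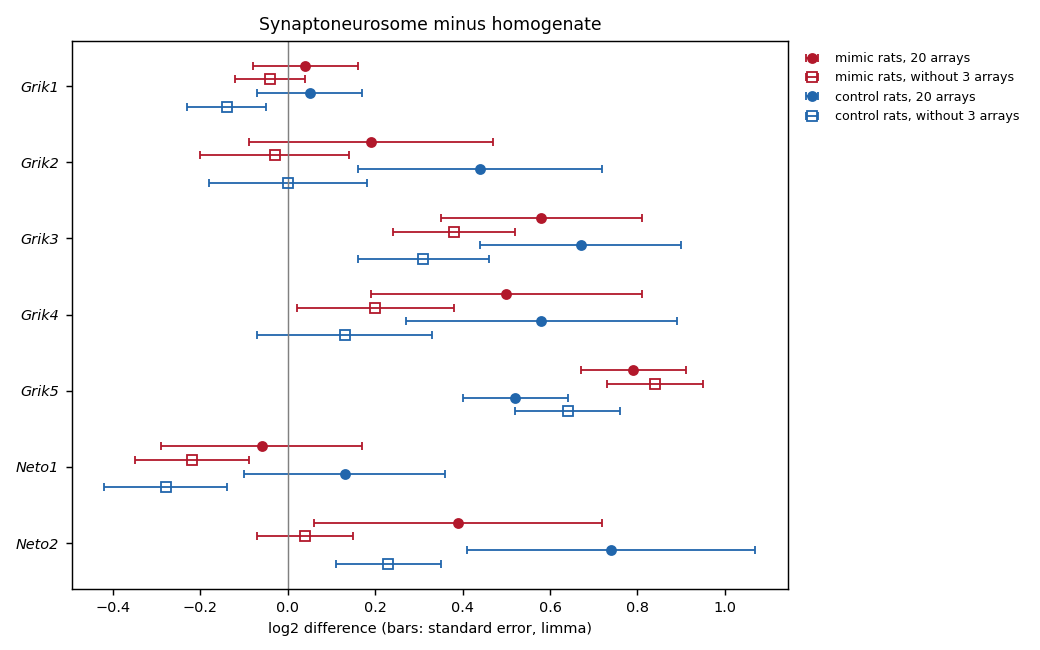
Log2 difference between synaptoneurosomes and homogenate for each member, in mimic rats (red) and control rats (blue), with all 20 arrays (filled circles) and without the 3 arrays that stood apart (open squares). Bars are standard errors from limma. Grik5 lies at 0.79 and 0.84 in mimic rats and at 0.52 and 0.64 in control rats, while Neto2 in control rats lies at 0.74 with the 3 arrays and at 0.23 without them.

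Arrays with the same replicate number deviated together across fractions within a treatment, so the fractions were also compared array by array. Grik3, Grik4 and Grik5 were higher in the synaptoneurosome array of every one of the 5 number pairs in both treatments. How many of all tested genes did the same was not counted, so the pattern is not set against that share. For Grik4 the pair differences were 0.21, 0.07, 0.38, 0.37 and 1.45 in mimic rats and 0.28, 0.06, 0.34, 1.25 and 0.96 in control rats. For Grik3 they were 0.44, 0.07, 0.35, 0.69 and 1.35 in mimic rats and 0.29, 0.17, 0.50, 1.17 and 1.20 in control rats. For Grik5 they were 0.88, 0.80, 0.91, 1.03 and 0.33 in mimic rats and 0.93, 0.53, 0.65, 0.34 and 0.15 in control rats. The pairs that hold an array that stood apart thus gave the widest differences of Grik3 and Grik4 and the narrowest of Grik5. With the replicate number as a block, Grik3 also passed in mimic rats (0.58 ± 0.19, limma adjusted p = 0.0308) and Grik4 in control rats (0.58 ± 0.21, limma adjusted p = 0.0437). This made 2 of 7 members higher in mimic rats and 3 of 7 in control rats, beside 12.1% and 13.3% of all tested genes. Without the 3 arrays and with no block, 2 of 7 were higher in mimic rats and 1 of 7 in control rats, beside 16.1% and 14.8% of all tested genes. With the block and without the 3 arrays, Grik4 lost its call in control rats (0.23 ± 0.09, limma adjusted p = 0.0563) and passed in mimic rats (0.26 ± 0.07, limma adjusted p = 0.0154). In that fit Grik3 passed in both treatments, at 0.39 ± 0.10 in mimic rats and 0.32 ± 0.11 in control rats (limma adjusted p = 0.0076 and 0.0419), and Neto1 fell by 0.27 in mimic rats (limma adjusted p = 0.0214). This fit made 3 of 7 members higher and 1 lower in mimic rats, beside 18.1% and 37.6% of all tested genes, and 2 of 7 higher in control rats, beside 16.2%.

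**Figure D3:**
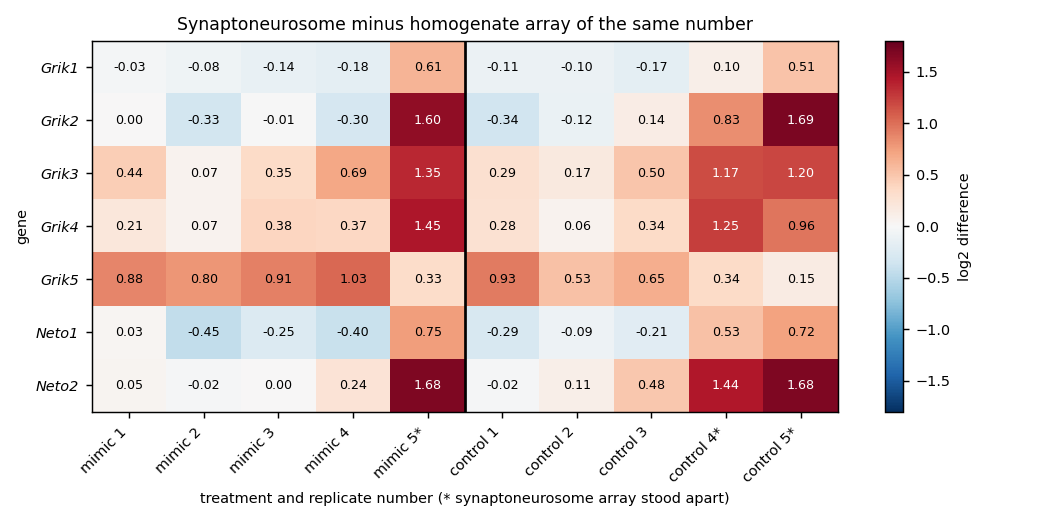
Log2 difference between the synaptoneurosome and the homogenate array of the same replicate number, for each member (rows) and each of the 5 numbers in mimic and control rats (columns). Red is higher in synaptoneurosomes, and an asterisk marks a pair whose synaptoneurosome array stood apart. The rows of Grik3, Grik4 and Grik5 are above 0 in every column, and in the marked columns Grik5 lies between 0.15 and 0.34, below its values in the unmarked columns.

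The 3 arrays that stood apart carried more of every member except Grik5. Each lay above the range of the other synaptoneurosome arrays of its group for 6 of the 7 members, and the same was true of 19.3% of all tested genes. Neto2 exceeded the mean of the other arrays by 1.74 in synaptoneurosome mimic 5, and by 1.09 and 1.48 in synaptoneurosome control 4 and 5. Grik4 exceeded it by 1.48, 1.36 and 0.87 in the same order of arrays, and Grik2 by 1.12, 0.99 and 1.23. Grik3 exceeded it by 1.01, 0.63 and 1.12, Neto1 by 0.79, 1.02 and 1.02, and Grik1 by 0.36, 0.22 and 0.69. Grik5 was instead 0.25, 0.19 and 0.39 below that mean, under the range of the others in synaptoneurosome mimic 5 and control 5 and within it in control 4.

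Markers of several cell types moved with these arrays, and in bulk samples fewer cells of a type and less RNA per cell cannot be told apart. The summed log2 signal of 14 interneuron markers, all measured, was 15.69 in synaptoneurosome mimic 5 against 14.41 to 14.65 in the other mimic arrays. It was 15.72 and 16.02 in synaptoneurosome control 4 and 5 against 14.37 to 14.85 in the other control arrays, and homogenate arrays held 14.99 to 15.19 in mimic and 14.83 to 15.56 in control rats. Interneurons are the cells Grik1 is best known for. Among the members that rose on these 3 arrays, Grik1 rose least on each, by 0.36, 0.22 and 0.69 in the order above. For CA1 pyramidal cells, with 5 of 6 markers measured, the sums were 15.08 in mimic 5 against 13.08 to 13.96, and 14.92 and 14.82 in control 4 and 5 against 13.05 to 14.33, with homogenate at 12.67 to 13.20 in mimic and 12.71 to 13.57 in control rats. For dentate granule cells, with 8 of 8 measured, they were 13.84 against 13.08 to 13.38 in mimic, and 14.25 and 13.93 against 13.15 to 13.54 in control, with homogenate at 13.67 to 13.92 and 13.59 to 14.03. Microglial markers, 9 of 9 measured, gave 14.05 against 13.01 to 13.67 in mimic, and 13.85 and 14.25 against 12.80 to 13.20 in control, with homogenate at 13.20 to 13.72 and 12.94 to 13.48. These 4 lists were thus higher on all 3 arrays, and the excitatory neuron sum was not. Markers of neurons from outside the hippocampus went the other way, at 11.98 in mimic 5 against 12.83 to 13.19, and 11.85 and 11.95 in control 4 and 5 against 12.94 to 13.43, with homogenate at 11.76 to 12.00 and 11.78 to 12.58. Choroid plexus markers reached 13.67 in mimic 5, against 8.13 to 8.19 in the other synaptoneurosome mimic arrays and 8.01 to 13.24 in homogenate mimic arrays. CA3 and CA2 pyramidal cell markers, 8 of 8 measured, gave 12.56 in mimic 5 against 11.93 to 12.24 in the other mimic arrays. In control 4 and 5 they gave 12.18 and 13.02, within the 11.72 to 13.14 of the other control arrays. Homogenate held 12.89 to 13.96 in mimic and 12.37 to 13.81 in control rats for this list. The dimmest interneuron and CA1 markers, Lhx6 and Pou3f1, averaged 6.44 and 7.80, above the brightness limit of 4.97 used for testing, as did the dimmest microglial marker, Trem2 (5.36). The dimmest of the dentate list (Tdo2, 4.39), of the CA3 and CA2 list (Iyd, 4.58), of the choroid plexus list (Kcnj13, 4.59) and of the neurons from outside the hippocampus (Slc6a3, 4.81) lay below it. The part of these cells in the levels of the kainate receptor genes was not tested.

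Comparing mimic with control asks whether supplying miR-17-5p went with other levels of these transcripts, in the synaptic fraction or in whole tissue. None of the 7 members passed the test in synaptoneurosomes, in homogenate, or for the change of the mimic effect from one fraction to the other. Over all 15465 genes 0% passed in synaptoneurosomes, 0% in homogenate and 0% for the difference in limma, with 542, 268 and 243 genes at an unadjusted p below 0.05 and no member among them. In synaptoneurosomes Grik5 averaged 11.64 ± 0.12 in mimic rats and 11.42 ± 0.27 in control rats (SD, n = 5 each), with overlapping arrays. Its log2 difference was 0.22 ± 0.12 (SE, 95% interval -0.03 to 0.46, limma adjusted p = 0.933), and without the 3 arrays it was 0.15. Neto2 averaged 12.03 ± 0.79 in mimic rats and 12.54 ± 0.74 in control rats in this fraction, and the groups overlapped. Its log2 difference was -0.51 ± 0.33 (95% interval -1.19 to 0.18, limma adjusted p = 0.933), and -0.34 ± 0.13 without the 3 arrays (limma adjusted p = 0.819). The other 5 members had log2 differences between -0.21 and 0.12 in synaptoneurosomes. Without the 3 arrays Neto1 stood at 0.36 ± 0.15 (limma adjusted p = 0.825), against 0.12 ± 0.23 with them, and Grik2 at 0.07, against -0.15 with them.

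In homogenate Neto1 averaged 14.76 ± 0.10 in mimic rats and 14.45 ± 0.25 in control rats (SD, n = 5 each), and the groups overlapped. Its log2 difference of 0.31 ± 0.23 (SE, 95% interval -0.16 to 0.79, limma adjusted p = 1) was the widest of the 7 in this fraction. The fit without the 3 synaptoneurosome arrays gave the same difference with an SE of 0.12 (limma adjusted p = 0.999). Grik4 averaged 10.74 ± 0.19 in mimic rats and 10.55 ± 0.35 in control rats, a log2 difference of 0.19 ± 0.31 (95% interval -0.47 to 0.84). The remaining 5 lay between -0.16 for Neto2 and 0.10 for Grik2. The intervals of this fit rest on 1 spread for both fractions, and synaptoneurosome arrays varied more. For Grik5 in homogenate they leave log2 differences from -0.30 to 0.19, and for Neto2 in the same fraction from -0.84 to 0.52. The Neto2 interval is wider than its homogenate arrays alone would give, whose SDs were 0.15 in mimic and 0.19 in control rats. A fit on the homogenate arrays alone gave the same Neto2 difference of -0.16 with an SE of 0.1, against 0.33 here. For Grik5 that SE was 0.09, against 0.12. The mimic effect in synaptoneurosomes minus that in homogenate was 0.27 ± 0.16 for Grik5 (95% interval -0.07 to 0.61) and -0.35 ± 0.46 for Neto2 (95% interval -1.32 to 0.62), with a limma adjusted p of 0.998 for both. The other 5 lay between -0.25 for Grik2 and -0.01 for Grik1. Thus 6 of 7 were below 0, with a median of -0.09, beside a median of -0.03 over all tested genes. Over the 17 other arrays 5 of 7 were above 0, with a median of 0.06: Grik2 stood at -0.03, Neto2 at -0.18, and the other 5 between 0.05 for Neto1 and 0.20 for Grik5. The median over all tested genes was again -0.03, and the shares of all genes above and below 0 were not counted.

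**Figure D4:**
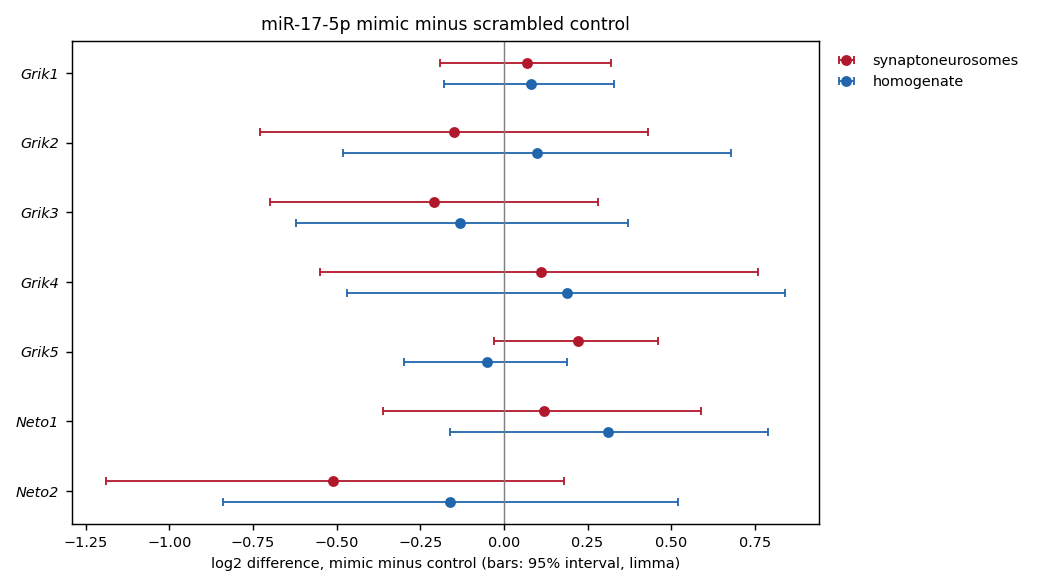
Log2 difference between mimic and control for each member in synaptoneurosomes (red) and homogenate (blue), with 95% intervals from limma. Every interval crosses 0, and that of Neto2 in synaptoneurosomes reaches from -1.19 to 0.18.

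Ordering the 4 group means shows how little separates most groups. For Grik5 the order was synaptoneurosome mimic (11.64 ± 0.12), synaptoneurosome control (11.42 ± 0.27), homogenate control (10.90 ± 0.13) and homogenate mimic (10.85 ± 0.19), as mean ± SD of 5 arrays. The arrays of synaptoneurosome control and homogenate control did not overlap, and the other neighbours in the order did. Grik3 and Neto2 had one order, which was synaptoneurosome control, synaptoneurosome mimic, homogenate control and homogenate mimic, with means of 9.73, 9.52, 9.06 and 8.94 for Grik3 and 12.54, 12.03, 11.80 and 11.64 for Neto2. Grik4 ran from synaptoneurosome mimic (11.23) through synaptoneurosome control (11.13) and homogenate mimic (10.74) to homogenate control (10.55). Grik2 ran from synaptoneurosome control (12.36) through synaptoneurosome mimic (12.21) and homogenate mimic (12.02) to homogenate control (11.92). Neto1 was highest in homogenate mimic (14.76), then synaptoneurosome mimic (14.69), synaptoneurosome control (14.58) and homogenate control (14.45). Grik1 ran from synaptoneurosome mimic (7.47) through homogenate mimic (7.43) and synaptoneurosome control (7.40) to homogenate control (7.36). For these 6 members every pair of neighbours in the order overlapped. With the 3 arrays left out, the orders of Grik5 and Grik3 were as before, and those of the other 5 were not. The mean of synaptoneurosome control was then 11.92 for Grik2, level with homogenate control. It was 14.17 for Neto1 and 7.22 for Grik1, the lowest of the 4 groups in each case, and 10.68 for Grik4, below homogenate mimic. For Neto2 synaptoneurosome mimic (11.68) then came below homogenate control (11.80).

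Among the members, Grik3 and Neto2 had the highest correlation of log2 levels over the 20 arrays (Pearson r = 0.91), and r was 0.60 over the 17 arrays without those that stood apart. Grik4 and Neto1 followed with r = 0.79, and 0.52 over 17 arrays. Grik2 and Neto2 had r = 0.77 over 20 arrays and -0.33 over 17, so that this relation rested on the 3 arrays. Grik5 and Grik3 had r = 0.45 over 20 arrays and 0.72 over 17. These values describe arrays that share fraction and, for homogenate and synaptoneurosome arrays of the same number, a common source of variation.

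The genes whose levels ran most like Grik5 over the 20 arrays were Itpr1, the intracellular calcium release channel (r = 0.956), Bltp2 (r = 0.956) and Kif1b, a kinesin motor (r = 0.942), and over 17 arrays r was 0.957, 0.96 and 0.955. Those most like Grik3 were Mir3577, Ptprn2 and Chst10, with r from 0.97 to 0.973 over 20 arrays and 0.891 to 0.934 over 17. Those most like Grik4 were Galnt17, the guidance receptor Nrp1 and the growth factor receptor Fgfr1, at 0.947 to 0.958 over 20 arrays and 0.853 to 0.886 over 17. For Neto1 they were Tbc1d8b, Pkp2 and Chst9, at 0.91 to 0.957 and 0.832 to 0.925. The likest genes of the other 3 depended more on the arrays that stood apart. Rnf150, Fut8 and Rnf145 reached 0.97 to 0.979 with Neto2 over 20 arrays and 0.685 to 0.794 over 17. Hapln1, Alg11 and Itga9 reached 0.911 to 0.926 with Grik2, and 0.643 to 0.69 over 17. Galnt11, Rasgrf1 and Kcnmb2 reached 0.822 to 0.84 with Grik1, and 0.565 to 0.731 over 17.

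Proteins that bind, move, modify or act downstream of kainate receptors formed a list of 39 genes, of which 34 were tested. In each treatment 6 were higher and 14 lower in synaptoneurosomes, and 6 higher and 13 lower were called in both. Over all tested genes 11% were higher and 30.8% lower in mimic rats, and 11.8% and 28% in control rats. Over 17 arrays 9 of the 34 were higher and 14 lower in mimic rats, beside 16.1% and 35.4% of all tested genes, and 11 were higher and 11 lower in control rats, beside 14.8% and 29%. The median log2 difference was -0.12 in mimic rats and -0.15 in control rats. Nrxn3, a presynaptic adhesion protein that C1q-like proteins link to kainate receptors at mossy fibres, was higher by 1.02 ± 0.17 in mimic rats and 1.15 ± 0.17 in control rats (limma adjusted p = 0.000142 and 5.48e-05). Cdh2, the synaptic adhesion protein N-cadherin, was higher by 0.67 ± 0.23 and 0.97 ± 0.23 (limma adjusted p = 0.0232 and 0.00255), and the scaffold Cask by 0.27 ± 0.06 in each (limma adjusted p = 0.00251 and 0.00291). Among genes that were lower, Ppp3r1, the regulatory subunit of the phosphatase calcineurin, fell by 1.22 on the log2 scale in mimic rats and by 1.03 in control rats (limma adjusted p = 8.15e-09 and 7.17e-08). The G protein subunit gene Gnao1 fell by 0.52 and 0.47 (limma adjusted p = 9.68e-07 and 3.22e-06). The PDZ protein gene Pick1, whose product binds the tails of kainate receptor subunits, fell by 0.50 and 0.43 (limma adjusted p = 3.63e-06 and 2.49e-05). All 6 passed without the 3 arrays as well. In the comparisons of mimic with control none of the 34 passed, with medians of -0.01 in synaptoneurosomes and 0.03 in homogenate.

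The other ionotropic glutamate receptors give a point of reference for the fraction values. Of 7 NMDA receptor subunit genes 5 were higher in synaptoneurosomes in each treatment, beside 11% and 11.8% of all tested genes. Their median log2 difference was 0.51 in mimic rats and 0.75 in control rats, and 0.47 and 0.51 without the 3 arrays. Grin2a differed by 1.18 in mimic rats and 1.11 in control rats, and Grin2b by 0.74 and 0.75. Of the 3 AMPA receptor subunit genes tested, Gria3 was higher, by 0.97 in mimic rats and 1.15 in control rats, and Gria1 (0.43 and 0.64) and Gria4 (0.40 and 0.66) did not pass. Over 17 arrays Gria1 stood at 0.22 and 0.19 and Gria4 at 0.18 and 0.19, while Gria3 stood at 0.84 and 1.06. Gria2 was not analysed here. Whether the kainate receptor genes differed from these families was not tested.

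The remaining probe sets of the members were dim. Grik3 had 2 more, with mean log2 levels of 3.89 and 4.87, and Grik1 had 2 more, with means of 4.47 and 4.79, all below the brightness limit of 4.97. The 2 further Grik3 probe sets differed between fractions by -0.07 to 0.28 and did not pass the test in any comparison (smallest limma adjusted p = 0.138). Those of Grik1 differed by 0.02 to 0.22 (smallest limma adjusted p = 0.281). For Grik3 the fraction difference therefore rests on its brightest probe set.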

How the data were processed

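The deposited table held log2 expression values for 68842 probe sets on 20 arrays, made by the authors from amplified total RNA (100 ng per sample) with Transcriptome Analysis Console and RMA, per the submitters' processing notes. The sources used here give no version or setting of either. RMA subtracts background, gives the probes of all arrays one distribution and summarises them as log2, so differences of dim transcripts come out too small. The deposited values did not share one distribution: array medians were 5.11 to 5.26, and a further quantile scaling moved the split of calls. The number of arrays limits the precision. Replicates of a group differed by a mean of at least 0.154, so none was a duplicate.

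Probe sets were named from the platform annotation: 23446 had 1 symbol, 505 had several and 44891 had none here. A current gene table held 22077 of them by gene number. Genes in the lowest 30% by mean were left out. Groups and replicate numbers came from the sample titles. limma 3.58.1 in R 4.3.3 fitted 4 group means (16 residual degrees of freedom, constant prior with 2.56 degrees of freedom), two-sided, so homogenate and synaptoneurosomes share 1 estimate of the spread although synaptoneurosome arrays varied more. The fit was also run on simulated data with independent noise for each gene and array. That run could not cover deviations shared across genes, as on the 3 arrays that stood apart, or correlation between same-numbered arrays. Tables were made with Python 3.11.15 and pandas 2.3.3, and plots with matplotlib 3.10.9.

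Within a treatment, deviations from the group mean correlated between the homogenate and synaptoneurosome arrays of the same number at 0.102 to 0.354 in mimic and 0.241 to 0.476 in control rats, each above that with any other number, so the numbers pair the samples for the comparison of fractions. The labels do not say what a number stands for. Same-numbered synaptoneurosome arrays of mimic and control rats also correlated most with each other for numbers 1, 2, 3 and 5, as given below.

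The members, lists and tests were chosen with earlier results of these data known. All 7 members are named. Of their partners and regulators, those named are the 3 with the largest moderated t statistic in each direction among genes called in both treatments. The genes said to run most like a member are the 3 with the highest Pearson r over 20 arrays. The alternatives were other scalings, filters, priors, array weights, fits on the compared arrays alone, the replicate block, other probe sets and leaving out arrays. The block without the 3 arrays that stood apart was added after seeing the data.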

Additional observations from a re-analysis of the deposited data

Results flagged for a closer look

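In 28 groups of 5 arrays (7 genes in 4 groups), 3 were flagged for an array far from the others, by a rule that flags about 1 group in 20 by chance alone. In these 3 the gap to the nearest other array took 0.76 to 0.86 of the group's range. Grik4 was 12.42 in synaptoneurosome mimic 5, while the other 4 arrays of that group lay between 10.82 and 11.05, a gap of 0.86 of the range. Neto2 was 13.42 in the same array, with the others between 11.53 and 11.86 and a gap of 0.83. This array is 1 of the 3 that stood apart over all genes. Grik2 was 11.46 in homogenate control 5, with the others between 11.93 and 12.08 and a gap of 0.76. Homogenate mimic 5, at 11.51, was likewise the lowest of its group for Grik2.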

How the results depend on the processing

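Grik5 kept its direction and call in both treatments in all alternatives run on its probe set. In mimic rats 2 members were higher, in place of 1, under quantile scaling, with array weights, with only the arrays compared, with the replicate block and without the 3 arrays that stood apart, each time by Grik3. With the replicate block without the 3 arrays (added after seeing the data) 3 were higher, Grik3, Grik4 and Grik5, and 1 was lower (Neto1, -0.27, limma adjusted p = 0.0214). In control rats this fit called Grik3 and Grik5, and not Grik4. In control rats 1 was higher, in place of 2, with only the arrays compared and without the 3 arrays, by the loss of Grik3, and 3 were higher with the replicate block, by the gain of Grik4. The replicate block changed no other member's call. Leaving out 1 array at a time gave 1 to 2 members higher in mimic rats and 1 to 3 in control rats. Grik4 was called in control rats without synaptoneurosome control 1 (0.79, limma adjusted p = 0.0469) and Neto2 without synaptoneurosome control 2 (0.94, limma adjusted p = 0.0297). The dimmer Grik3 probe set with a mean of 4.87 gave -0.01 in control rats, a turned sign. No mimic comparison called a member in any alternative. Of 645 values not called in either fit, 54 turned sign. The causes were not tested. Replicate numbers paired mimic with control arrays only in part. Correlations of same-numbered deviations ran from 0.02 to 0.411 in homogenate and from -0.305 to 0.828 in synaptoneurosomes. In synaptoneurosomes numbers 1, 2, 3 and 5 gave 0.554, 0.589, 0.524 and 0.828, above the highest with another number (0.415, 0.546, 0.461 and 0.744). Number 4 gave -0.305, below 0.303. In homogenate only numbers 3 and 5 (0.284 and 0.411) were above it (0.081 and 0.086). The block called no gene in the mimic comparisons. Over all genes, higher calls in mimic rats numbered 1697, against 2974 with array weights, 4110 with no filter on dim genes, 2806 with the block without the 3 arrays and 1069 after median centring, and in control rats 1818, against 3287 with no filter. Lower calls numbered 4756 in mimic and 4332 in control rats, against 2938 and 2472 after quantile scaling.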
